A study of Zea mays with 7 samples.

Results

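The *RAMOSA* genes *RA1*, *RA2* and *RA3* and the *RA3* paralog *TPP4* were followed in ear primordia of the maize mutant *Bif3* and of wild-type siblings. The genes were taken by their identifiers, with earlier results of these data known, and are 4 of the 110451 genes of the count table: *RA1* (*GRMZM2G003927*), *RA2* (*AC233943.1_FG002*), *RA3* (*GRMZM2G014729*) and *TPP4* (*GRMZM2G151044*). All 4 were among the 40650 genes tested, which had at least 2 counts over all pools.

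*Barren inflorescence3* (*Bif3*) carries a tandem duplication of the maize *WUSCHEL1* gene (*ZmWUS1*), and the added copy has a chimeric promoter that drives it outside its usual domain. RNA-seq was made from 4 pools of homozygous *Bif3/Bif3* ears and 3 pools of wild-type siblings, with 3 ear primordia of 3 to 4 mm in each pool. Both genotypes were field grown in the B73 background and no agent was applied. *Bif3/Bif3* stands for the reference allele alone, its ears were collected by their mutant appearance, and the zygosity is given in the study's methods and not in the sample labels.

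Maize ears and tassels branch through axillary meristems, and the *RAMOSA* genes make these meristems determinate, so that they form spikelet pairs in place of long branches. *RA1* encodes a zinc finger transcription factor that works with the corepressor RAMOSA ENHANCER LOCUS2 (REL2). *RA2* encodes a LOB-domain transcription factor and *RA3* a trehalose-6-phosphate phosphatase, and genetic studies place both upstream of *RA1*. *TPP4* encodes a trehalose-6-phosphate phosphatase closely related to RA3, and mutations in it enhance the *ra3* phenotype.

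The pools had between 42481699 and 50824983 counts in *Bif3/Bif3* and between 41720131 and 56057512 counts in wild-type, and 3 counts equalled between 0.054 and 0.0719 CPM. CPM stands for counts per 1000000 counts of the pool. Library sizes were scaled by the trimmed mean of M-values (TMM), whose factors were between 0.970 and 1.04. *ZmWUS1* was between 3.82 and 12.8 CPM in mutant pools and between 0.320 and 0.551 CPM in wild-type, so each pool matched its label. The meristem gene *KN1* was between 486 and 617 CPM in *Bif3/Bif3* and between 418 and 498 CPM in wild-type. On the first principal component, which held 46.9% of the variance, the *Bif3/Bif3* pools lay between 0.01 and 0.497 and the wild-type pools between -0.547 and -0.23. *Bif3/Bif3* replicate 3, at 0.01, was the mutant pool nearest to wild-type. *Bif3/Bif3* replicate 4 and wild-type replicate 2 stood at the ends of the second principal component, which held 19.8% of the variance.

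*RA2* was lower in *Bif3/Bif3* ears. It had 8.76, 7.49, 10.1 and 11.1 CPM in *Bif3/Bif3* pools, against 21.1, 12.4 and 16.2 CPM in the wild-type pools. The highest *Bif3/Bif3* pool was thus under the lowest wild-type pool. *RA2* averaged 9.35 ± 1.56 CPM over the *Bif3/Bif3* pools (SD, n = 4), against 16.6 ± 4.39 CPM over the wild-type pools (SD, n = 3). On the log2 scale this was a fold change of -0.82 (SE 0.18, 95% interval -1.21 to -0.43), a level 1.77-fold lower in *Bif3/Bif3*. This passed the threshold of the edgeR quasi-likelihood test (adjusted p = 0.0307), which asks of each gene a p under 0.05, an adjusted p under 0.1 and a fold change over 1.5. In an exact two-sided permutation test of the mean CPM the p was 0.0286, the smallest that the 35 splits of the pools can give. In whole ear primordia, fewer cells that express a gene and less RNA in each of them cannot be told apart.

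*RA3* was also lower in *Bif3/Bif3* ears, with a wide spread between the mutant pools. The *Bif3/Bif3* pools had 59.3, 62.0, 102 and 120.0 CPM, against 183, 124 and 183 CPM in the wild-type pools. The genotypes did not overlap, but *Bif3/Bif3* replicate 4 came close to wild-type replicate 2: their 95% Poisson counting intervals were 117 to 123 CPM and 122 to 127 CPM. *RA3* averaged 85.8 ± 30.0 CPM over the *Bif3/Bif3* pools (SD, n = 4), against 163 ± 33.8 CPM over the wild-type pools (SD, n = 3). Its log2 fold change was -0.93 (SE 0.23, 95% interval -1.42 to -0.43), a level 1.90-fold lower, and passed the threshold in edgeR (adjusted p = 0.0487). The exact two-sided permutation test of the mean CPM gave p = 0.0571.

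Whether *RA3* passed the threshold depended on single pools. Replicates 1 and 2 of *Bif3/Bif3* were at 36.3% and 37.9% of the wild-type mean, and replicates 3 and 4 at 62.5% and 73.4%. Without *Bif3/Bif3* replicate 1 or 2, the log2 fold change was -0.75 (edgeR adjusted p = 0.129) or -0.80 (adjusted p = 0.126), and without wild-type replicate 1 or 3 it was -0.84 in either case (adjusted p = 0.138 and 0.167), so the threshold was no longer passed. In these fits the unadjusted p was between 0.00401 and 0.011. Over all genes, those lower past the threshold were 142, 114, 213 and 137 in the same 4 fits, against 243 with all pools. The log2 ratio of the mean CPM was -0.56 with *Bif3/Bif3* replicates 1 and 2 both left out and -1.43 with replicates 3 and 4 both left out, against -0.93 with all pools. This split of the pools was chosen after their values were seen. Without *Bif3/Bif3* replicate 3, the log2 fold changes were -0.67 for *RA1*, -0.86 for *RA2*, -1.02 for *RA3* and 0.24 for *TPP4*, with no call changed. *RA2* passed the threshold with each of the 7 pools left out in turn, at log2 fold changes between -1.0 and -0.61. Its edgeR adjusted p was then between 0.0128 and 0.0956, against the limit of 0.1. It was 0.0933 or 0.0875 without *Bif3/Bif3* replicate 1 or 2, and 0.0956 or 0.0903 without wild-type replicate 1 or 3.

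*TPP4* did not pass the threshold. It had 24.2, 22.9, 19.7 and 20.0 CPM in *Bif3/Bif3* pools, against 21.1, 14.7 and 20.9 CPM in the wild-type pools. The genotypes overlapped, and the lowest pool was wild-type replicate 2. Its average was 21.7 ± 2.22 CPM over the *Bif3/Bif3* pools (SD, n = 4), against 18.9 ± 3.62 CPM over the wild-type pools (SD, n = 3). Its log2 fold change was 0.20 (SE 0.13, 95% interval -0.09 to 0.49; edgeR adjusted p = 0.469), and the exact two-sided permutation test gave p = 0.286.

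*RA1* did not pass the threshold either. It had 6.85, 6.32, 10.2 and 7.55 CPM in *Bif3/Bif3* pools, against 9.63, 8.16 and 15 CPM in the wild-type pools. *Bif3/Bif3* replicate 3 was above wild-type replicates 1 and 2, so the genotypes overlapped. *RA1* averaged 7.73 ± 1.72 CPM over the *Bif3/Bif3* pools (SD, n = 4), against 10.9 ± 3.62 CPM over the wild-type pools (SD, n = 3), with a log2 fold change of -0.50 (SE 0.21). The 95% interval of -0.97 to -0.03 also holds changes as large as those estimated for *RA2* and *RA3*. The edgeR test gave an unadjusted p of 0.0375 and an adjusted p of 0.248, and the exact two-sided permutation test gave p = 0.143. Wild-type replicate 3 weighed most on this value: without it the log2 fold change was -0.20 (adjusted p = 0.674), and leaving out replicate 2 of wild-type gave -0.68 (adjusted p = 0.134).

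**Figure D1:**
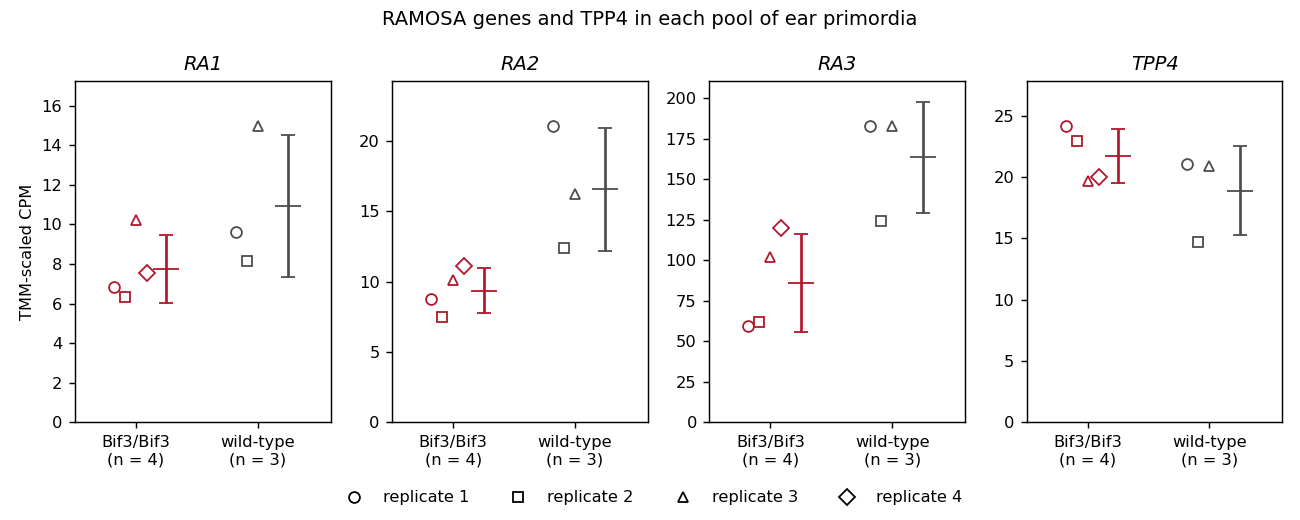
TMM-scaled CPM (vertical axes, linear, each from 0) of *RA1*, *RA2*, *RA3* and *TPP4* in each pool of *Bif3/Bif3* (left, n = 4) and wild-type (right, n = 3) ear primordia. Open symbols stand for pools by replicate number and bars for the mean ± SD; for *RA2* and *RA3* every *Bif3/Bif3* pool lies under every wild-type pool, while for *RA1* and *TPP4* the genotypes overlap.

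Of the 4 genes, 2 were past the threshold with a lower level in *Bif3/Bif3* and none with a higher one; at an unadjusted p under 0.05 these counts were 3 and 0, and DESeq2 gave 2 and 0. Over all 40650 genes tested, 3.99% were past it, 0.598% with a lower level in *Bif3/Bif3* and 3.39% with a higher level. The *Bif3/Bif3* pools all lay under the wild-type pools in 2 of the 4 genes and in 7.69% of all genes tested, and all above them in none of the 4 and in 8.38% of all genes tested. In either direction the genotypes did not overlap in 16.1% of all genes tested. The median log2 fold change was -0.66 over the 4 genes and -0.01 over all genes tested. The study had already named *RA2* and *RA3* among lower genes in these same samples, so their counts are no independent evidence of direction.

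The spread between pools was larger than counting alone gives for each of the 4 genes. The coefficient of variation over the *Bif3/Bif3* and wild-type pools was 22.3% and 33.1% for *RA1*, 16.7% and 26.5% for *RA2*, 35% and 20.7% for *RA3*, and 10.2% and 19.1% for *TPP4*. Poisson counting accounted for between 3.65% and 5.79% in *RA1* and between 1.05% and 1.96% in *RA3*, with *RA2* and *TPP4* between those limits. The biological coefficient of variation that edgeR estimated was 0.226 for *RA3*, against a trend of 0.108 for genes of its level, and 0.218 for *RA1*, against a trend of 0.171. For *TPP4* it was 0.138, near its trend of 0.130.

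Whether *RA1* changed differently from *RA2* and *RA3* was tested on the log2 ratio of their counts within each pool, which does not depend on library scaling. The log2 ratio of *RA1* to *RA2* was -0.35, -0.24, 0.01 and -0.55 in the *Bif3/Bif3* pools, against -1.13, -0.60 and -0.11 in the wild-type pools. The wild-type pools covered nearly the whole range of both genotypes. The ratio was 0.33 higher in *Bif3/Bif3* (SE 0.32, interval -0.44 to 1.14), with an exact two-sided permutation p of 0.343, or 0.411 adjusted over the 6 pairs of the 4 genes. This difference was 0.07 without wild-type replicate 1 and 0.58 when replicate 3 was left out instead. The intervals of the ratios hold the shifts that the exact test does not reject at 0.05.

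The log2 ratio of *RA1* to *RA3* was -3.11, -3.29, -3.32 and -3.99 in the *Bif3/Bif3* pools, against -4.25, -3.93 and -3.60 in the wild-type pools. In 3 of the 4 *Bif3/Bif3* pools it was above every wild-type pool, and replicate 4 lay among the wild-type pools. The difference was 0.50 (SE 0.27, interval -0.80 to 1.23; exact p = 0.171, adjusted p = 0.257). Between *RA2* and *RA3* the difference was 0.17 (SE 0.19, interval -0.51 to 1.07; exact p = 0.457, adjusted p = 0.457). The change of *RA1* was thus not shown to differ from that of *RA2* or *RA3*, although *RA1* alone of these 3 did not pass the threshold, and the intervals do not show that the 3 genes changed alike.

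The ratios to *TPP4* showed the widest gaps between genotypes, none of which passed after adjustment over the pairs. For *RA2* the log2 ratio to *TPP4* was -1.47, -1.61, -0.96 and -0.85 in the *Bif3/Bif3* pools, against 0.00, -0.25 and -0.36 in the wild-type pools, and the genotypes did not overlap. The difference was -1.02 (SE 0.21, interval -1.91 to -0.16), with an exact p of 0.0286 and an adjusted p of 0.171. For *RA1* the difference was -0.69 (SE 0.29, interval -1.49 to 0.60; exact p = 0.0857, adjusted p = 0.171), and *Bif3/Bif3* replicate 3, at -0.95, lay within the wild-type range of -1.13 to -0.47. None of the 6 pairs had an adjusted p under 0.05, and the smallest unadjusted p that the 35 splits can give is 0.0286. With *RA2* to *TPP4* alone at this smallest p, the adjusted exact test could not fall under 0.05.

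*RA3* and *TPP4*, the pair of related enzymes, were also set against each other within pools. The log2 ratio of *RA3* to *TPP4* was 1.29, 1.44, 2.37 and 2.59 in the *Bif3/Bif3* pools, against 3.12, 3.08 and 3.13 in the wild-type pools. The SD was 0.65 in *Bif3/Bif3* (n = 4) and 0.027 in wild-type (n = 3), where Poisson counting alone would give 0.047 to 0.053, so the closeness of the 3 wild-type pools is partly chance. A difference in spread was not tested. Among the *Bif3/Bif3* pools, replicates 1 and 2 were the pools farthest from wild-type. The difference of -1.19 (SE 0.33, interval -2.66 to 0.36) had an exact two-sided permutation p of 0.0571 and an adjusted p of 0.171.

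Expressed as a share, *RA3* took 71.0% (exact binomial 95% interval 69.5 to 72.4), 73.1% (71.7 to 74.4), 83.8% (82.8 to 84.8) and 85.7% (84.9 to 86.6) of the summed *RA3* and *TPP4* counts in the *Bif3/Bif3* pools. In the wild-type pools it took 89.7% (89.0 to 90.3), 89.4% (88.7 to 90.1) and 89.7% (89.1 to 90.3). These intervals cover counting error only, and the counts are not corrected for transcript length, so the shares can be set against each other between pools but do not compare the levels of the 2 genes. The means were 78.4% ± 7.46 (SD, n = 4) in *Bif3/Bif3* and 89.6% ± 0.175 (SD, n = 3) in wild-type (exact two-sided permutation p = 0.0857). The summed CPM of *RA3* and *TPP4* averaged 108 ± 28.0 in *Bif3/Bif3* (SD, n = 4) and 182 ± 37.4 in wild-type (SD, n = 3), with an exact p of 0.0857.

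**Figure D2:**
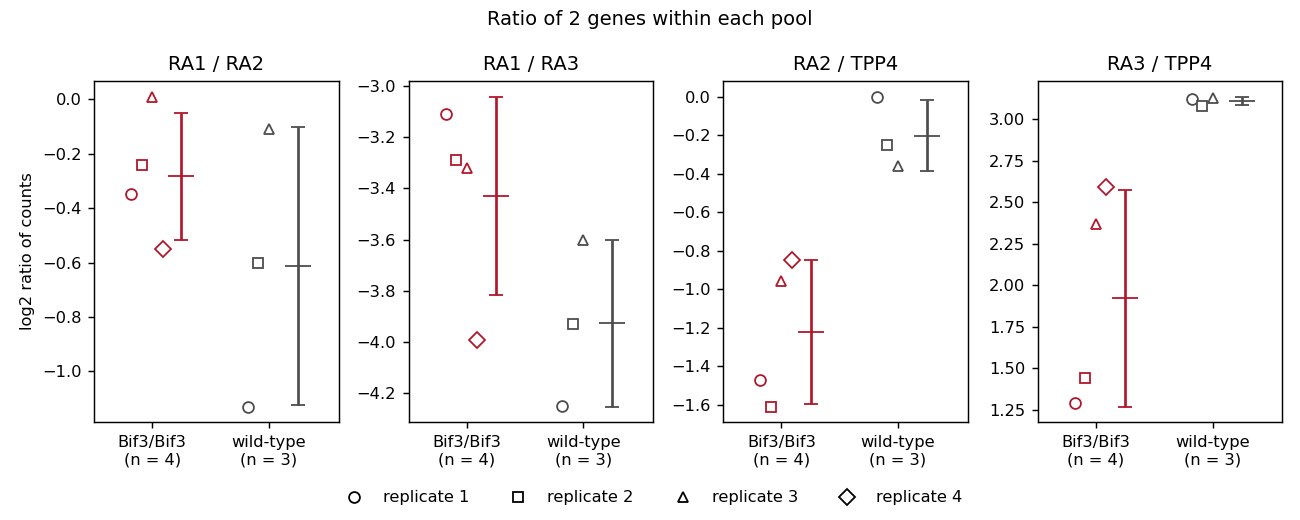
Log2 ratio of the counts of 2 genes within a pool (vertical axes) for *RA1* over *RA2*, *RA1* over *RA3*, *RA2* over *TPP4* and *RA3* over *TPP4*, in *Bif3/Bif3* (left, n = 4) and wild-type (right, n = 3). Open symbols stand for pools and bars for the mean ± SD; the wild-type pools of *RA3* over *TPP4* lie between 3.08 and 3.13 and the *Bif3/Bif3* pools between 1.29 and 2.59.

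The members did not rank the pools alike. Wild-type replicate 2 was the lowest wild-type pool for all 4 genes. *Bif3/Bif3* replicates 1 and 2 were the 2 lowest mutant pools for *RA1*, *RA2* and *RA3* and the 2 highest for *TPP4*. *RA1* was highest in replicate 3 of either genotype, at 10.2 CPM in *Bif3/Bif3* and 15 CPM in wild-type. *RA2* was highest in *Bif3/Bif3* replicate 4 and wild-type replicate 1. *RA3* was also highest in *Bif3/Bif3* replicate 4, while wild-type replicates 1 and 3 were both at 183 CPM.

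Genes of other tissues were set beside these pool differences. The suppressed bract marker *ZYB15* was at 54.6, 47.3, 28.8 and 26.4 CPM in *Bif3/Bif3* pools, against 20.9, 58.9 and 32.9 CPM in the wild-type pools. It was highest in the *Bif3/Bif3* pools with the least *RA3* and in the wild-type pool with the least *RA3*. Its mean was 39.3 ± 13.8 CPM in *Bif3/Bif3* (SD, n = 4) and 37.6 ± 19.4 CPM in wild-type (SD, n = 3), at a log2 fold change of 0.06 (edgeR adjusted p = 0.948). The part of this tissue in the *RA3* difference was not tested.

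The 5 leaf genes, which encode photosynthetic enzymes, summed to between 24.9 and 46.7 CPM in *Bif3/Bif3* and between 26.7 and 31.3 CPM in wild-type. Nearly all of this sum came from *PPDK1* and *ME3*. *PPDK1* was between 16.9 and 39.1 CPM in *Bif3/Bif3* and between 15.1 and 19.2 CPM in wild-type. For *ME3* these ranges were 6.17 to 7.63 CPM and 10.3 to 12.0 CPM. *PEP1* had no count in any pool, *SSU1* was between 0.223 and 0.817 CPM in *Bif3/Bif3* and between 0.1 and 1.12 CPM in wild-type, and *SSU2* was at or under 0.0446 CPM in every pool. Of the 4 tested, *ME3* passed at a log2 fold change of -0.67 (adjusted p = 0.0174), and *PPDK1*, at 0.75 (adjusted p = 0.111), did not. Over all genes tested, 0.598% passed with a lower level and 3.39% with a higher level. *PPDK1* passed with a higher level in *Bif3/Bif3* in 6 of 18 alternative settings.

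Of 11 listed genes of branch and axillary meristems, 10 were tested. Of these, 3 passed with a lower level in *Bif3/Bif3* and none with a higher one, against 0.598% and 3.39% of all genes tested. The median of the 10 log2 fold changes was 0.35, against -0.01 over all genes tested. In the higher direction 4 had an unadjusted p under 0.05, and DESeq2 placed 1 past the threshold. The 3 lower ones had been named by the study on these samples, so this count is no independent evidence of direction. *BA1*, a bHLH gene needed to start axillary meristems, had 9.23, 8.66, 13.7 and 12.4 CPM in *Bif3/Bif3* pools, against 29.5, 16.7 and 27.7 CPM in the wild-type pools. Its log2 fold change was -1.16 (SE 0.20, edgeR adjusted p = 0.0121). *BAF1*, an AT-hook gene that acts in ear initiation, had 4.06, 2.40, 5.20 and 4.25 CPM in *Bif3/Bif3*, against 12.2, 6.12 and 15.1 CPM in wild-type, with a log2 fold change of -1.48 (SE 0.29, adjusted p = 0.0201).

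*WAB1*, a TCP gene that acts on branch angle, had 1.5, 1.40, 1.70 and 2.86 CPM in *Bif3/Bif3*, against 8.94, 4.72 and 7.41 CPM in wild-type. Its log2 fold change was -1.91 (SE 0.27, adjusted p = 0.00512). In each of these 3 genes the *Bif3/Bif3* pools all lay under the wild-type pools, as in 7.69% of all genes tested. The lowest wild-type pool of each was replicate 2, as for the *RAMOSA* genes. Each passed the threshold in all 18 alternative settings.

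The other tested genes of this list did not pass. *GT1*, a homeodomain leucine zipper gene that restrains lateral buds, had 111, 98.6, 48.0 and 45.5 CPM in *Bif3/Bif3*, against 35.4, 61.4 and 34.0 CPM in wild-type. It was thus highest in the mutant pools that were lowest for *RA3*, and in the wild-type pool that was lowest for *RA3*. Its log2 fold change was 0.80 (edgeR adjusted p = 0.206), and it passed with a higher level in 2 of 18 alternative settings. *TSH4* and *UB3*, SBP-box genes of bract and branch growth, were at 0.35 (adjusted p = 0.45) and 0.29 (adjusted p = 0.167). The related *UB2*, at 0.38 (adjusted p = 0.128), and the auxin biosynthesis gene *SPI1*, at 0.90 (adjusted p = 0.111), had no overlap between genotypes. Over all genes tested, the *Bif3/Bif3* pools all lay above the wild-type pools in 8.38%. *SPI1* passed with a higher level in 7 of 18 alternative settings. *UB2* and *SPI1* were named after their values were seen. *VT2* had 1 count in all and was not tested.

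**Figure D3:**
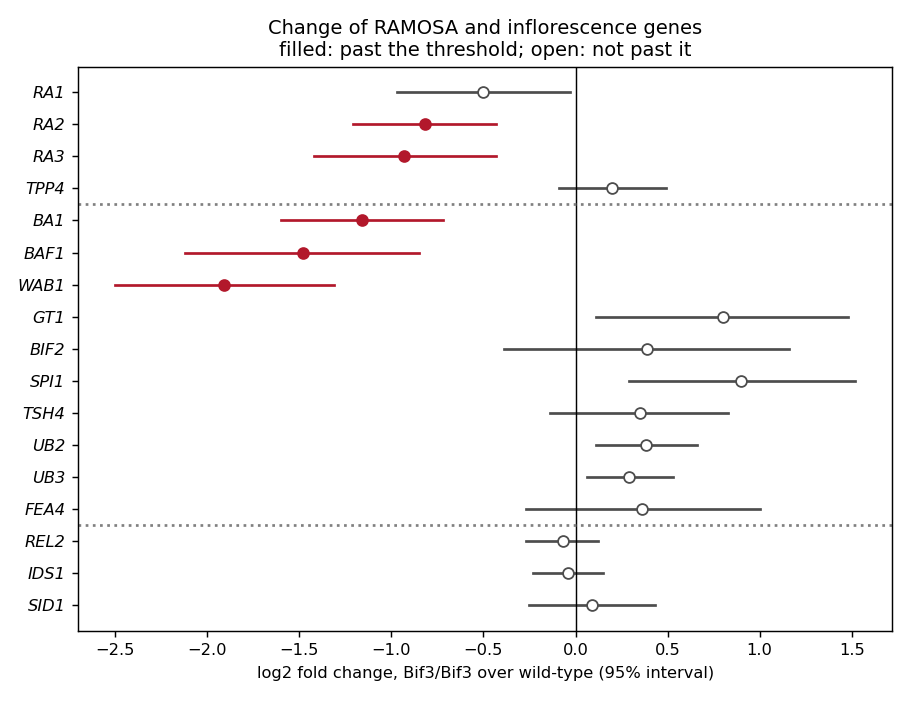
Log2 fold change, *Bif3/Bif3* over wild-type (horizontal axis, with 95% intervals), of the *RAMOSA* genes and *TPP4* (top), tested branch and axillary meristem genes (middle), and *REL2*, *IDS1* and *SID1* (bottom); filled points are past the threshold. *RA2* at -0.82 and *RA3* at -0.93 are filled, as are *BA1*, *BAF1* and *WAB1*, while *RA1* at -0.50 is open.

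*REL2*, which encodes the corepressor that works with RA1, was at 623, 688, 739 and 758 CPM in *Bif3/Bif3* pools, against 708, 765 and 742 CPM in the wild-type pools. The genotypes overlapped, with averages of 702 ± 60.4 CPM in *Bif3/Bif3* (SD, n = 4) and 739 ± 28.9 CPM in wild-type (SD, n = 3). The log2 fold change of *REL2* was -0.07 (SE 0.09, 95% interval -0.27 to 0.12; edgeR adjusted p = 0.718).

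None of the 3 spikelet meristem genes passed in edgeR or in DESeq2, in either direction, and 0 had an unadjusted p under 0.05. The AP2-type genes *IDS1* and *SID1*, which make spikelet meristems determinate, were at log2 fold changes of -0.04 (95% interval -0.23 to 0.15) and 0.09 (95% interval -0.25 to 0.43). *BD1*, an ERF gene that specifies spikelet meristems, was at 2.88, 1.70, 0.112 and 0.0604 CPM in *Bif3/Bif3*, against 0.90 and 0.1 CPM in wild-type replicates 2 and 3 and no count in replicate 1. It too was highest in the *Bif3/Bif3* pools with the least *RA3* and in the wild-type pool with the least *RA3*. A relation to *RA3* was not tested. The smallest unadjusted p of the 3 was 0.160 for *BD1* (adjusted p = 0.465). Among the 18 alternative settings, *BD1* passed only with the replicate number as a block.

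Of 4 meristem identity genes none passed in edgeR or in DESeq2, and 1 had an unadjusted p under 0.05 in each direction. *KN1* was at 0.23 (95% interval 0.01 to 0.45; edgeR adjusted p = 0.259). The related homeobox gene *LG3* was at -0.33 (adjusted p = 0.053), under the fold limit. Its *Bif3/Bif3* pools all lay under the wild-type pools, as in 7.69% of all genes tested. *GN1* and *ZFL1* were at -0.10 and 0.34.

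Of the 4 floral organ genes, 3 were near the counting limit. *ZAG1* passed with a higher level in *Bif3/Bif3*, at 22, 103, 8 and 54 counts, against 0, 0 and 2 counts in wild-type. Over all genes tested, 3.39% passed with a higher level. The other 3, *ZMM2*, *SI1* and *BDE1*, had at most 11 counts in any pool and did not pass.

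Other LOB-domain genes were taken only by a *LOB* number as their symbol, so those under other names are not covered. Of 10 genes with a *LOB* number as their symbol, 7 were tested. None of the 7 passed with a lower level (0 at an unadjusted p under 0.05, 0 in DESeq2) and 1 with a higher level. Over all genes tested these shares were 0.598% and 3.39%. The median log2 fold change of the 7 was -0.13, against -0.01 over all genes tested. *LOB14* had 22.0, 22.1, 15.8 and 14.8 CPM in *Bif3/Bif3*, against 8.19, 9.07 and 8.31 CPM in wild-type. Its log2 fold change was 1.13 (SE 0.15, edgeR adjusted p = 0.0043), opposite in sign to that of *RA2*. The difference between the 2 was not tested. *LOB27*, *LOB31* and *LOB19*, the uncalled ones with the highest levels, were at -0.21, -0.56 and 0.22 (adjusted p = 0.795, 0.312 and 0.773).

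**Figure D4:**
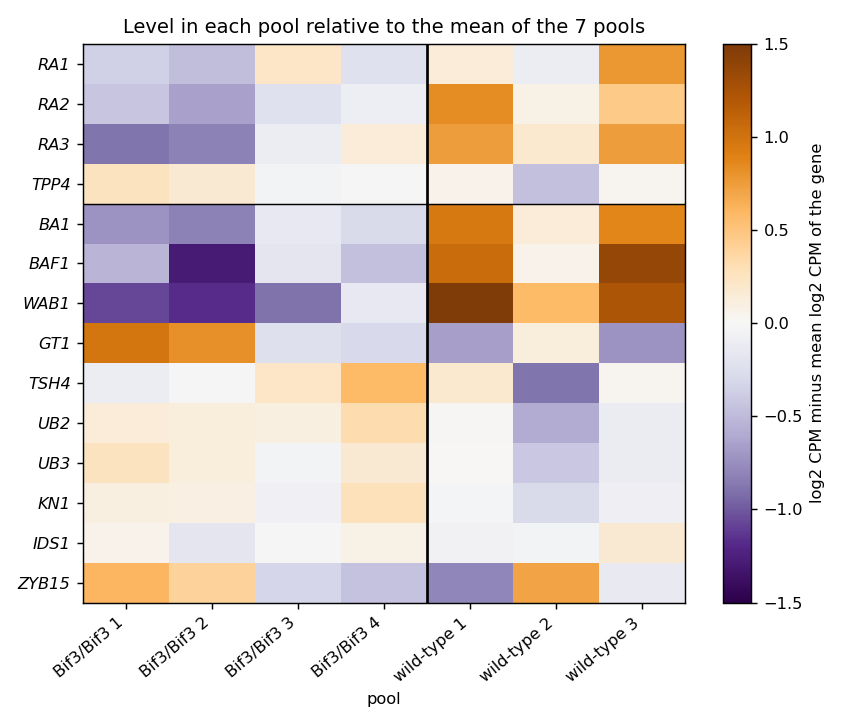
Level of each gene in each pool as log2 CPM minus its mean over the 7 pools (color scale, from -1.5 to 1.5), with *Bif3/Bif3* pools left of the vertical line and wild-type pools right of it; the *RAMOSA* genes and *TPP4* lie above the horizontal line. *RA3* is lowest in *Bif3/Bif3* replicates 1 and 2, where *GT1* and *ZYB15* are high.

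The genes with the most similar pattern over the 7 pools were taken by the smallest root mean square difference of centered log2 CPM, over 21632 genes with a mean of at least 1 CPM. This is a description over pools that share their libraries. For *RA1* they were *GRMZM2G179501* (0.0854) and *GRMZM2G359874* (0.101), and like *RA1* neither passed the threshold. For *RA2* they were *GRMZM2G093096* (0.125) and *GRMZM2G061398* (0.126), both past the threshold at a log2 fold change of -0.81. For *RA3* they were *GRMZM2G322844* (0.115) and *GRMZM2G427672* (0.125), at -0.90 and -0.74 and not past it (adjusted p = 0.118 and 0.101). For *TPP4* they were *GRMZM2G127893* (0.0534) and *GRMZM2G515808* (0.0617), at 0.12 and 0.16. Where the gene table names these genes, it gives locus or clone names only.

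Over 18 alternative settings, *RA2* passed the threshold in 18, *RA3* in 14, and *RA1* and *TPP4* in none. The log2 fold change of *RA1* was between -0.68 and -0.20 and its unadjusted p was under 0.05 in 13 of them. Among the 18 are an adjusted p under 0.05 and no fold limit, which changed only the threshold on the main fit and repeat its p. The setting with no fold limit keeps every gene past the main threshold. With the replicate number as a block, *RA1* had an adjusted p of 0.0324 at a log2 fold change of -0.47, under the fold limit. *Bif3/Bif3* replicate 4, which has no wild-type pool of its number, adds nothing to the difference in that fit.

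**Figure D5:**
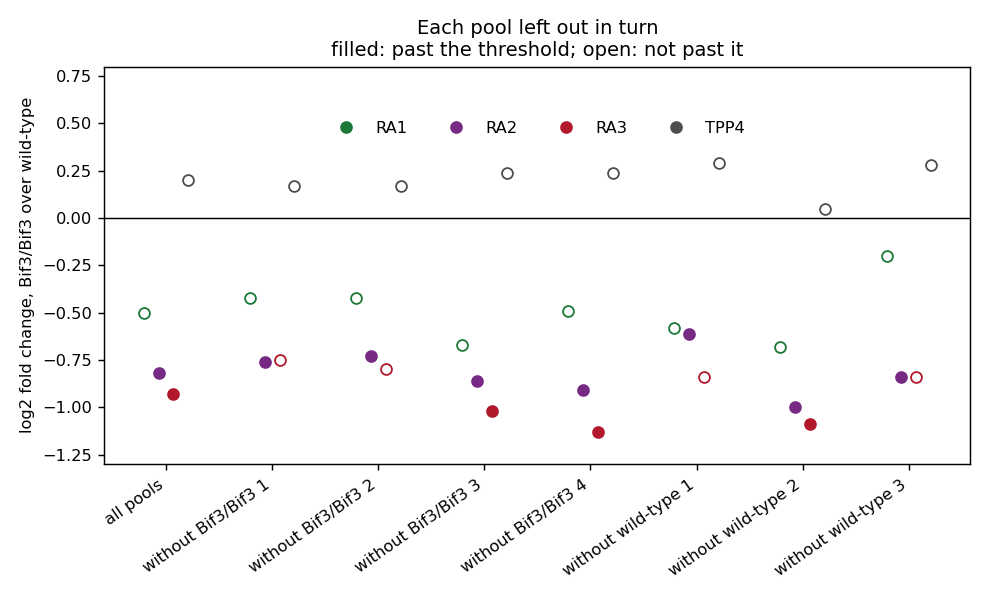
Log2 fold change, *Bif3/Bif3* over wild-type (vertical axis), of *RA1*, *RA2*, *RA3* and *TPP4* with all pools and with each pool left out in turn (horizontal axis); filled points are past the threshold. *RA2* is filled throughout, *RA3* is open without *Bif3/Bif3* replicate 1 or 2 and without wild-type replicate 1 or 3, and *RA1* and *TPP4* are open throughout.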

How the data were processed

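Total RNA of ear primordia was made into stranded mRNA libraries. According to the study's methods, Trimmomatic was used for trimming, HISAT 2.1.0 for alignment (B73 v3) and HTSeq-count for the counts of each gene. The submitters' processing notes name TopHat2 2.1.1 and Cuffdiff besides Trimmomatic and edgeR, so the aligner behind the table is uncertain. The values the authors deposited are whole read counts that have not been normalized. How strand was treated in the counting is not given in the sources used here, so reads of overlapping or antisense genes may be mixed, and reads shared by *RA3* and *TPP4* could be lost or misassigned.

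Groups were taken from the labels of all 7 samples. Counts were fitted in R 4.3.3 with edgeR 4.0.16 (TMM scaling, legacy quasi-likelihood F test, no covariate), on the 40650 genes with at least 2 counts, with Benjamini-Hochberg adjustment over all of them. The threshold was p under 0.05, adjusted p under 0.1 and a fold change over 1.5. On simulated data with 200 genes changed by 1.5 on the log2 scale, 194 were recovered among 39156 genes fitted, with 10 unchanged genes past the threshold. Counts were drawn at the trend of the biological coefficient of variation, and the planted change was larger than that of any member. This recovery thus does not give the power for the members. Single values were compared by exact two-sided permutation tests over 35 splits of the pools (smallest p 0.0286). Ratios within pools used 0.5 added to each count. The edgeR p-values set the genotype difference against the spread between these pools, moderated over all genes. The exact p-values place the observed split among the 35 splits. Each pair of pools differed beyond the 95% counting range in 33.0% to 60.7% of genes with at least 10 counts, so no 2 columns hold the same library.

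Genes named are the 4 members; in lists of up to 6 genes all, otherwise those past the threshold and the 3 others with the highest mean CPM; and for each member the 2 most similar genes. The members, lists and choice of genes tested were made with earlier results of these data known. *RA2* was identified by the study's gene list and *TPP4* by its given identifier. Of 40 list entries, 3 that no table annotates and 2 whose name the gene table gives differently were left out. The gene table (assembly NAM-5.0) was used for names only. No gene lengths were used, so levels are not compared between genes, and the trehalose family as a whole was not analysed here. Alternatives were DESeq2 size factors, no TMM, edgeR 4 quasi-likelihood, DESeq2 1.42.0, limma-voom (limma 3.58.1), other gene filters and thresholds, a replicate block and each pool left out. A gene of the meristem identity list is not reported here.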

Additional observations from a re-analysis of the deposited data

Results flagged for a closer look

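In 42 groups of 4 *Bif3/Bif3* pools checked, 1 pool stood far from the others in 4 genes, none of them a *RAMOSA* gene or *TPP4*; chance gives about 1 in 20 groups. *Bif3/Bif3* replicate 4 was at 12.8 CPM for *ZmWUS1* (others 3.82 to 5.13), at 73.8 CPM for *UB2* (others 63.3 to 64.8) and at 30.4 CPM for *ZFL1* (others 23.0 to 23.7). *Bif3/Bif3* replicate 2 was at 0.212 CPM for *SI1* (others 0.067 to 0.0805), which is 10 counts against 3 or 4. *Bif3/Bif3* replicate 4 was also the mutant pool with the most *RA2* and *RA3*; without it their log2 fold changes were -0.91 and -1.13.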

How the results depend on the processing

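None of the 4 members, none of their ratios and no named gene past the threshold changed direction. Of the other genes named, *ZYB15* (-0.23 to 0.54), *REL2* (-0.11 to 0.01), *IDS1* (-0.09 to 0.04), *SID1* (-0.04 to 0.18), *SSU1* (-0.31 to 2.19), *LOB19* (-0.04 to 0.41) and *LOB27* (-0.48 to 0.39) changed sign in log2 fold change over the alternatives. Genes lower in *Bif3/Bif3* past the threshold were 243, against 137 at adjusted p under 0.05, 670 with no fold limit and between 114 and 327 with a pool left out; those higher were 1380, against 891 at adjusted p under 0.05 and between 687 and 1817 with a pool left out. Fitting every gene of the table gave 189 lower and 1108 higher. With a pool left out, the log2 fold change of *RA3* was between -1.13 and -0.75 and passed in 3 of 7 fits, that of *RA1* between -0.68 and -0.20, of *RA2* between -1.0 and -0.61 and of *TPP4* between 0.05 and 0.29. The *RA1* to *RA2* difference was then between 0.07 and 0.58. The *RA2* to *TPP4* difference was -0.96 by medians over pools (exact two-sided permutation p = 0.114). The cause of these shifts was not tested.

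Replicate numbers were not taken as pairs in the main fit, since the labels do not say that same-numbered pools belong together. Same-numbered pools correlated at -0.02, 0.46 and 0.27 in their deviations from the group means, and differently numbered pools at -0.33 to 0.25. A shared effect of the replicate number was not tested. In the block fit, *Bif3/Bif3* replicate 4 has no wild-type pool of its number, so it adds nothing to the genotype difference. The edgeR adjusted p with the block was 0.0324 for *RA1*, 0.000516 for *RA2*, 1.25e-05 for *RA3* and 0.275 for *TPP4*. With the replicate block, 394 genes were lower past the threshold, and the log2 fold changes were -0.47 for *RA1*, -0.89 for *RA2*, -1.16 for *RA3* and 0.25 for *TPP4*, with no call changed among the 4. With *Bif3/Bif3* replicate 4 left out and no block, they were -0.49, -0.91, -1.13 and 0.24 in the same order. Each log2 ratio of the block, as the mean of 3 same-number differences with no test, was 0.42 for *RA1* to *RA2* and 0.69 for *RA1* to *RA3*.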
